A study of Mus musculus with 12 samples.

Results

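The genes described here are 42 mouse genes of cell-matrix adhesion, of which 18 encode integrin subunits and 24 encode proteins of the focal adhesion. They were taken as a list of gene symbols out of 37583 gene IDs counted in RNA-seq libraries of Ocy454 cells. Of the 42 genes, 39 passed the filter on low counts and were tested, and Itga2, Itga4 and Itga8 did not pass it. Ocy454 is an osteocyte line from mouse long bone, and the study used a sub-clone grown from 1 cell that carries a temperature-sensitive T antigen. Cells of all 4 groups were kept at 37 °C for 14 days, which switches the T antigen off. The 4 groups were control cells kept static (control static), control cells under fluid flow shear stress for 3 h (control FFSS), cells with deletion of HDAC4 and HDAC5 kept static (DKO static), and the same deletion cells under FFSS for 3 h (DKO FFSS). Each group had 3 libraries. The genotype label of the control cells is original cells, and the study's methods describe the controls of its guide RNA lines as carrying an empty guide vector. FFSS was applied by rotating the dishes on a heated platform. Control and DKO cells are separate lines, so an effect of the deletion and a difference between lines cannot be told apart. The labels do not say that replicates are separate cultures, so p-values measure the spread between these libraries, which may be technical.

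Integrins are receptors made of an alpha and a beta chain that bind matrix proteins outside the cell and the actin cytoskeleton inside it. The alpha chain sets most of the ligand preference: collagens, laminins, or matrix proteins with the RGD motif such as fibronectin and osteopontin. At focal adhesions talin and kindlin switch integrins on, and focal adhesion kinase (FAK, encoded by Ptk2) and Src phosphorylate scaffolds such as paxillin and p130Cas. In osteocytes, integrins and FAK are regarded as part of the apparatus that senses fluid flow. The class IIa histone deacetylases HDAC4 and HDAC5 act from the nucleus, where they repress genes, among others at sites of MEF2 factors. The study asked whether FAK and HDAC4 and HDAC5 lie on 1 path from fluid flow to gene expression, and the libraries compare the response to FFSS with and without the deacetylases.

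Between 17.6 and 19.2 M reads were assigned to genes per library, and 3 counts, the floor used here, corresponded to 0.146 to 0.178 CPM, the count scaled to a common library size with TMM factors. Hdac4 lay between 23.9 and 42.6 CPM in control libraries and between 12.1 and 16.95 CPM in DKO libraries. Hdac5 lay between 127 and 141 CPM in control static, 71.1 and 90.1 CPM in control FFSS, 80.1 and 90.7 CPM in DKO static, and 92.3 and 93.2 CPM in DKO FFSS libraries. Counts over a whole gene do not test for loss of the protein, and under FFSS the DKO libraries lay above the control libraries in Hdac5 CPM, while the raw Hdac5 counts overlapped (1457 to 1755 in control and 1553 to 1687 in DKO libraries). Replicate 1 of control FFSS stood apart from replicates 2 and 3. Its score on the second principal component was −5.73, against 34.6 and 33.8, and 5.87% of its counted reads lay outside annotated genes, against 9.19% and 10.0%. Counts and the main values without this library are given below. The summed level of 6 osteocyte markers was between 78.1 and 117 CPM in control static, 62.5 and 184 CPM in control FFSS, 3599 and 3687 CPM in DKO static, and 3619 and 4024 CPM in DKO FFSS libraries. Of the 5 osteocyte markers tested, 4 were higher in DKO static than in control static cells and Pdpn was lower (−2.47). Sost, which defines the mature osteocyte, was at 12.4 CPM or below in every control library, so control cells bore this part of their label only weakly.

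The integrin repertoire of control static cells was led by Itgb1, Itgb5 and 5 alpha chains. Levels between genes were compared as RPKM, reads per kilobase of exon at equal library size. Itgb1, the beta chain shared by the collagen, laminin and fibronectin receptors, stood at 502.5 ± 12.2 RPKM (SD, n = 3, as for all levels below). Itgb5, which pairs with alpha v, followed at 69.7 ± 2.01 RPKM. Itga5, the alpha chain of the classical fibronectin receptor, was at 22.9 ± 0.377 RPKM. Itga10, a collagen-binding chain of cartilage and bone, was at 19.9 ± 0.328 RPKM. Each of these 4 lay apart from its neighbours in the order by more than the spread. Itga11, another collagen receptor chain, was at 14.8 ± 0.215 RPKM and Itga3, a laminin receptor chain, at 13.9 ± 1.02 RPKM, and the libraries of these neighbours overlapped. Itgav was at 11.3 ± 0.690 RPKM. The remaining 8 tested subunits lay between 0.411 RPKM (Itgb4) and 2.67 RPKM (Itga7). Among the other proteins, Actn1 (166 RPKM) and Actn4 (159 RPKM), the alpha-actinins that cross-link actin, had the highest levels, followed by Sdc4 (114 RPKM), a heparan sulfate proteoglycan that acts as co-receptor. Ptk2 was at 23.7 ± 0.305 RPKM and its relative Ptk2b (PYK2) at 0.809 ± 0.0760 RPKM, so FAK transcripts were by far the more abundant of the pair.

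**Figure D1:**
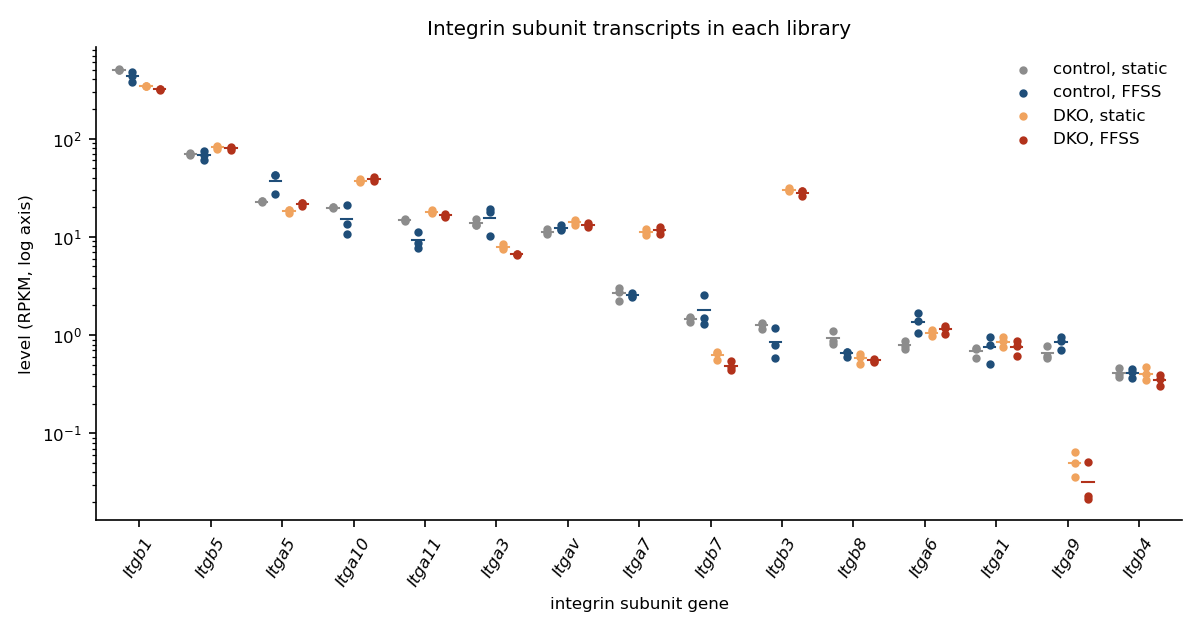
Levels of the integrin subunits in RPKM (log axis) in the 12 libraries, for the 15 tested subunits in the order of control static cells, with 1 point per library coloured by group and a line at each group mean. Itgb1 is highest in every group, and Itgb3, Itga7, Itga9 and Itgb7 show DKO points well away from control points.

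Among the 6 beta chains, the make-up of the repertoire differed more between the genotypes than between static and FFSS cells. Itgb1 held 87.2 ± 0.523% of the summed beta RPKM in control static and 85.7 ± 1.67% in control FFSS cells, against 75.3 ± 0.301% in static DKO cells and 74.4 ± 1.13% in DKO cells under FFSS. Itgb3, the beta chain of the alpha v beta 3 receptor for osteopontin and vitronectin, held 0.218 ± 0.0167% and 0.169 ± 0.0490% in control cells, against 6.56 ± 0.209% and 6.61 ± 0.484% in DKO cells. Itgb5 held 12.1 ± 0.552% and 13.6 ± 1.70% in control and 17.8 ± 0.525% and 18.7 ± 0.644% in DKO cells. For these 3 chains, every DKO library lay outside the range of the control libraries.

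**Figure D2:**
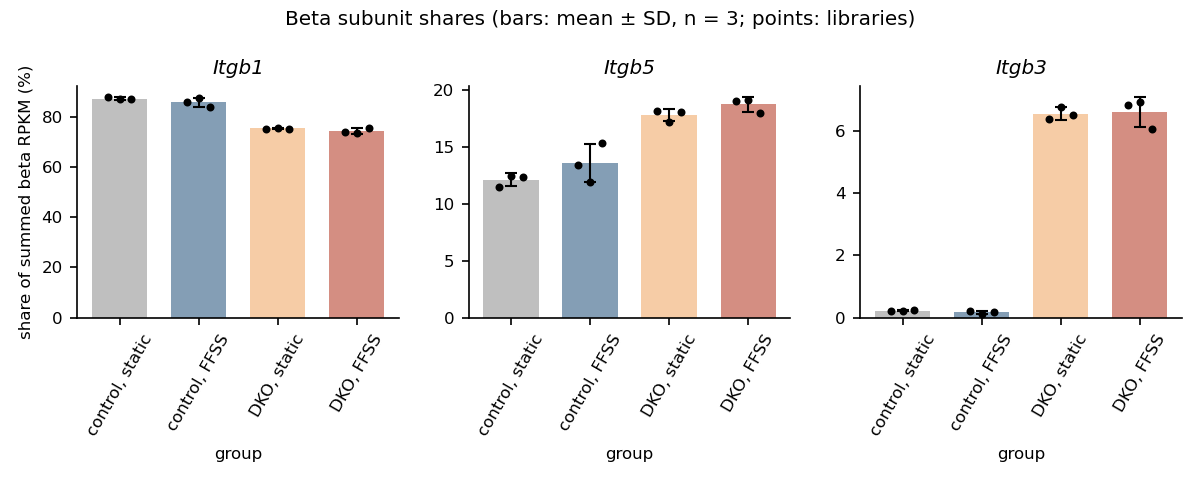
Share of Itgb1, Itgb5 and Itgb3 in the summed RPKM of the 6 beta chains, in percent, 1 panel each with its own axis, as bars of the mean of 3 libraries per group with SD error bars and 1 point per library. The Itgb1 share is lower and the Itgb3 and Itgb5 shares are higher in both DKO groups than in both control groups.

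The 12 alpha chains showed more movement. Itga5 held 26.1 ± 0.433% of the summed alpha RPKM in control static cells and 38.9 ± 6.30% in control FFSS cells, against 16.9 ± 0.634% and 19.5 ± 0.923% in DKO cells. Itga10 held 22.7 ± 0.372% and 16.2 ± 6.97% in control cells and 34.2 ± 1.29% and 35.3 ± 1.58% in DKO cells. Itga7, a laminin receptor chain best known from muscle, held 3.05 ± 0.460% and 2.69 ± 0.347% in control and 10.3 ± 0.671% and 10.6 ± 0.774% in DKO cells. Itga3 moved the other way, with 15.8 ± 1.16% and 16.3 ± 3.84% in control and 7.27 ± 0.524% and 5.99 ± 0.237% in DKO cells. Itgav held between 11.6% and 13.8% in every library. The leading alpha chain was thus Itga5 in every control library and Itga10 in every DKO library. Shares are described without a test. Ambiguous reads were not counted, so the level of Itga10 is uncertain.

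The comparison of control FFSS with control static cells asks which adhesion genes respond to 3 h of flow in cells that have both deacetylases. Of the 39 tested genes, 7 rose and 7 fell at an adjusted p under 0.05 (edgeR quasi-likelihood test, Benjamini-Hochberg adjustment over 14904 genes), while 17.7% of all genes tested rose and 18.1% fell. Past 2-fold, 1 rose (Ilk) and 1 fell (Tns1), while 5.93% of all genes tested passed that limit. The shares among the adhesion genes are near these backgrounds. Their median log2 fold change was 0.04, beside 0.01 over all genes tested. Those that rose were Itga5, Itga6, Src, Ilk, Zyx, Tns3 and Flna, and those that fell were Itga11, Itgb1, Itgb3, Itgb8, Lims1, Tns1 and Sdc4. Marker lists moved with FFSS as well. Of 6 osteoblast markers 3 fell, 2 of them past 2-fold, with sums of 19614 to 23654 CPM in static and 6452 to 19833 CPM in FFSS libraries, and without control FFSS replicate 1 all 6 fell. Of 3 tested leukocyte markers 2 fell, with sums of 26.3 to 31.0 and 16.4 to 24.6 CPM. The part of these markers in the adhesion genes was not tested.

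Of the 9 tested alpha chains, 2 rose and 1 fell, beside 17.7% and 18.1% of all genes tested. Itga5 (15:103174720-103197194, minus strand, mm9) was at 101.1, 98.2 and 101 CPM in control static replicates 1 to 3 and at 120.1, 184 and 186 CPM in control FFSS replicates 1 to 3. It rose by 0.71 ± 0.13 on the log2 scale (SE here and below; adjusted p = 0.0017). All FFSS libraries lay above all static libraries. Itga6, a laminin receptor chain, was at 7.03, 6.51 and 7.79 CPM in static and 9.55, 15.2 and 12.5 CPM in FFSS libraries, a log2 fold change of 0.80 ± 0.15 (adjusted p = 0.0015). Itga11 went down, from 75.7, 77.1 and 74.9 CPM in static to 57.1, 39.5 and 44.9 CPM in FFSS libraries (log2 fold change −0.69 ± 0.10, adjusted p = 0.00026). The groups did not overlap for either chain. The Itga5 and Itga6 calls were lost with the share of reads outside genes as a covariate (log2 fold changes 0.18 and 0.39), while the Itga11 call held in all 21 alternative settings, with its smallest value, −0.36, under the same covariate. Itga10 was at 104.0, 101.0 and 103.8 CPM in static and at 108.2, 55.8 and 70.7 CPM in FFSS libraries, so replicate 1 was above the static libraries and the other 2 were below them. Its log2 fold change was −0.40 ± 0.18 (adjusted p = 0.12). Itga3 showed the reverse split, with replicate 1 below and the other 2 above the static libraries, at 75.2, 85.8 and 76.2 CPM in static and 58.7, 101.9 and 109 CPM in FFSS libraries (0.18 ± 0.18, adjusted p = 0.45). Itgav was at 129, 115 and 119.6 CPM in static and at 126, 143 and 129 CPM in FFSS libraries (0.13 ± 0.07, adjusted p = 0.16), with overlapping groups.

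Of the 6 beta chains, 3 fell and none rose, beside 18.1% and 17.7% of all genes tested, and each of the 3 calls was lost in several settings. Itgb1 (8:131209554-131257100, plus strand, mm9) was at 2108, 2030 and 2014 CPM in static and at 1936, 1786 and 1531 CPM in FFSS libraries, a log2 fold change of −0.23 ± 0.07 (adjusted p = 0.027). Its groups did not overlap, but the call was lost without control static replicate 1, 2 or 3 (−0.20, −0.24 and −0.24), without control FFSS replicate 3 (−0.14), with library totals alone, in a fit of the 6 control libraries and with the covariate (−0.023, adjusted p = 0.88). Itgb3 was at 7.66, 6.67 and 7.68 CPM in static and at 6.88, 3.42 and 4.65 CPM in FFSS libraries (−0.56 ± 0.18, adjusted p = 0.032). Replicate 1 fell within the static range, and the call was lost without control static replicate 1 or 3 (−0.53 each) without control FFSS replicate 2 or 3 (−0.35 and −0.52), with no filter on low counts and in the 6-library fit. With the covariate the sign turned (0.040). Itgb8, which pairs with alpha v and can activate TGF-beta, was at 12.2, 8.90 and 9.58 CPM in static and at 7.40, 6.69 and 7.52 CPM in FFSS libraries (−0.51 ± 0.13, adjusted p = 0.010). Without control static replicate 1 its log2 fold change was −0.36 and the call was lost, as it was with the covariate and in the 6-library fit. Itgb5 was at 227, 240.0 and 236 CPM in static and at 249, 201 and 230.4 CPM in FFSS libraries (−0.05 ± 0.07, adjusted p = 0.63), with no separation of the groups.

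Of the 4 kinases, Src and Ilk rose and Ptk2 and Ptk2b did not pass, while 17.7% of all genes tested rose and 18.1% fell. Ptk2 (15:73035535-73253621, minus strand, mm9) was at 122.8, 119.7 and 121 CPM in static and at 129, 113 and 112 CPM in FFSS libraries. Its log2 fold change was −0.04 ± 0.06 (adjusted p = 0.67), and 2 SE to either side reached from −0.16 to 0.09. Ptk2b was at 5.39, 6.51 and 6.05 CPM in static and at 5.08, 9.61 and 7.92 CPM in FFSS libraries (0.34 ± 0.20, adjusted p = 0.20). Neither gene passed with all libraries, and without control FFSS replicate 1 Ptk2b passed (0.55 ± 0.14, adjusted p = 0.0012) and Ptk2 did not (−0.11 ± 0.05, adjusted p = 0.087). Src was at 38.0, 42.9 and 38.7 CPM in static and at 41.2, 63.3 and 61.8 CPM in FFSS libraries, with replicate 1 inside the static range (0.48 ± 0.13, adjusted p = 0.011). Its call was lost without control FFSS replicate 2 (0.37) or 3 (0.39) and in the 6-library fit, and with the covariate its sign turned (−0.038). Ilk, the integrin-linked pseudokinase, was at 0.740, 0.729 and 0.684 CPM in static and at 0.822, 1.90 and 3.07 CPM in FFSS libraries (1.43 ± 0.38, adjusted p = 0.011). Its FFSS libraries lay above its static libraries, and the call was lost without control FFSS replicate 3 (0.93) and in the 6-library fit, while the covariate turned its sign (−0.15). Of the Ilk exon bases, 89.7% overlap Taf10 and Rrp8 on the other strand and reads there were not counted, so the Ilk counts stand for a small stretch of the gene.

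Among the 19 adaptors, activators and actin linkers, 3 genes rose and 2 fell, beside 17.7% and 18.1% of all genes tested. Tns1, a tensin that links beta chains to actin, was at 60.3, 55.1 and 59.8 CPM in static and at 36.7, 19.7 and 21.4 CPM in FFSS libraries. It fell by 1.17 on the log2 scale (SE 0.19, adjusted p = 0.0012). Tns3, another tensin, was at 243, 226 and 229 CPM in static and at 297, 302 and 337 CPM in FFSS libraries, and rose by 0.42 ± 0.06 (adjusted p = 0.00040). The 2 tensins thus went in opposite directions, each with no overlap between groups. Lims1 (PINCH), which joins ILK to other adaptors, was at 245, 235 and 237 CPM in static and at 164, 189 and 179.9 CPM in FFSS libraries (−0.43 ± 0.06, adjusted p = 0.00013). The calls of Tns1, Tns3 and Lims1 at an adjusted p under 0.05 held in all 21 alternative settings, though with the covariate the log2 fold change of Tns1 was −0.54, short of 2-fold. Zyx, encoding zyxin, which moves to actin fibres under tension, was at 212.5, 217 and 201 CPM in static and at 195.5, 470.2 and 469.7 CPM in FFSS libraries (0.85 ± 0.28, adjusted p = 0.041). Flna, encoding filamin A, was at 939.5, 865 and 877 CPM in static and at 896, 1616 and 1514 CPM in FFSS libraries (0.59 ± 0.17, adjusted p = 0.020). In both genes replicates 2 and 3 of FFSS lay far above the static libraries and replicate 1 did not. The Zyx call was lost in 16 of the 21 settings, among them those that left out any 1 library other than control FFSS replicate 1 (log2 fold changes 0.66 to 0.87), and it held without that replicate. The Flna call was lost with no filter on low counts, in the 6-library fit, without control static replicate 2 (0.56) or 3 (0.57) and without control FFSS replicate 2 (0.43) or 3 (0.49). With the covariate both genes turned sign (−0.29 for Zyx and −0.10 for Flna). Pxn, encoding paxillin, was at 114, 121 and 117 CPM in static and at 103.7, 106 and 108 CPM in FFSS libraries (−0.15 ± 0.06, adjusted p = 0.055), with the FFSS libraries all below. Sdc4 was at 289, 291 and 289 CPM in static and at 257.5, 257 and 253 CPM in FFSS libraries (−0.18 ± 0.05, adjusted p = 0.011), again without overlap, a call lost with library totals alone, with the covariate and in the 6-library fit.

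How many adhesion genes passed depended on replicate 1 of control FFSS, among other choices. For each library the difference from the mean of the static libraries was taken on the log2(CPM + 1) scale. Its median size over the 39 genes was 0.178 in replicate 1, 0.339 in replicate 2 and 0.387 in replicate 3. Replicates 2 and 3 had the same sign in 37 of the 39 genes, and replicate 1 had the opposite sign in 20, among them Vcl, Zyx, Bcar1, Ptk2, Itga3 and Itga10. These sizes and signs were not worked out over all genes tested. Without replicate 1, 20 adhesion genes rose and 9 fell, beside 26.7% and 28.3% of all genes tested, and these included all 14 genes that passed with it. In that fit the log2 fold changes were 1.16 for Zyx, 0.81 for Flna, 0.65 for Src, 0.60 for Bcar1 (p130Cas), 0.45 for Vcl (vinculin), 0.46 for Tns3, 1.78 for Ilk, −0.37 for Lims1, −0.18 for Sdc4, −0.13 for Pxn and −1.51 for Tns1, all passing. Among the integrins they were 0.89 for Itga5, 0.96 for Itga6, 0.41 for Itga3, 0.16 for Itgav, −0.85 for Itga11, −0.70 for Itga10, −0.31 for Itgb1, −0.86 for Itgb3 and −0.53 for Itgb8, which passed, and −0.12 for Itgb5, which did not (adjusted p = 0.063, edgeR). Without replicate 2 the counts were 4 and 7, beside 12.6% and 13.1% of all genes tested, and without replicate 3 they were 3 and 5, beside 12.3% and 13.0%. With library totals alone, which moved the median of all genes to 0.13, 10 rose and 5 fell, beside 27.5% and 11.2% of all genes tested. With the share of reads outside genes as a covariate 1 rose (Tns3) and 12 fell, beside 6.86% and 8.51% of all genes tested, with a median log2 fold change of −0.19 over the adhesion genes. Those that fell in that fit were Lims1, Itga11 and Tns1, which also fell in the fit without it, and Itga3, Fblim1, Actn1, Vcl, Tln1, Tgfb1i1, Bcar1, Fermt2 and Tln2. Of these 9, Itga3, Actn1, Vcl, Tln1, Tgfb1i1, Bcar1 and Tln2 rose in the fit without replicate 1, so their direction differs between these settings. The part of the read share outside genes, or of any handling difference, in this split was not tested.

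**Figure D3:**
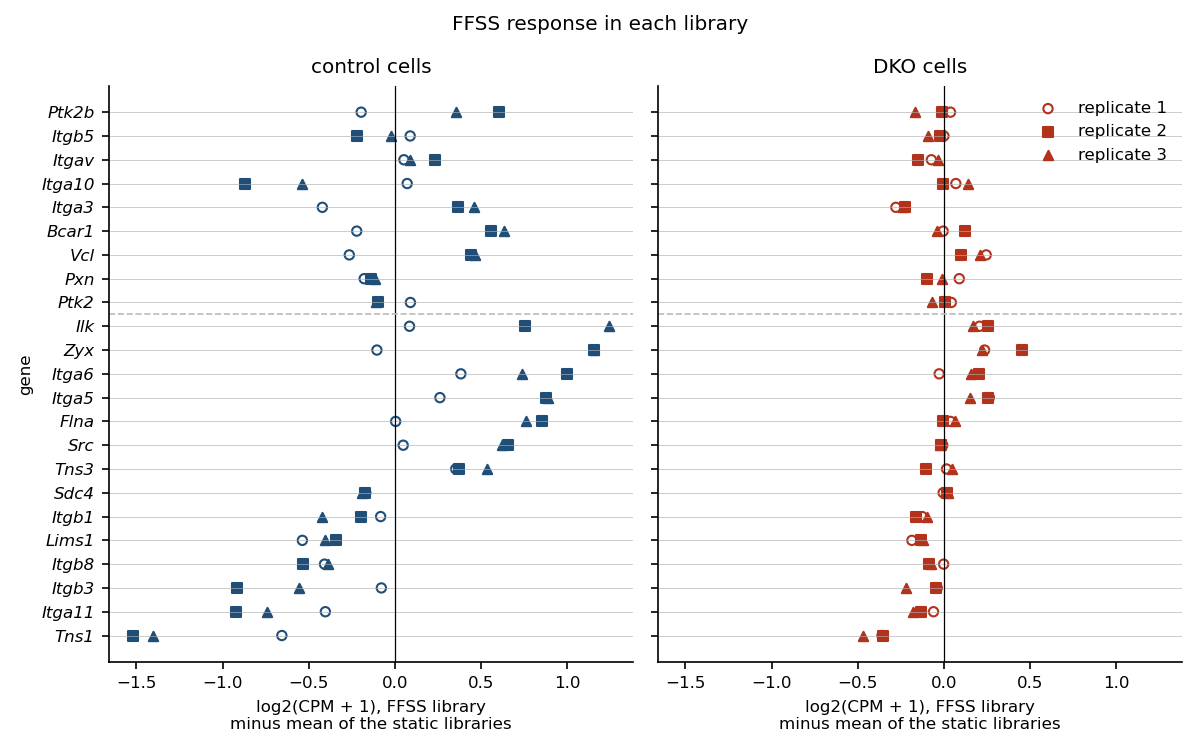
Difference of each FFSS library from the mean of the static libraries of its genotype, on the log2(CPM + 1) scale, for 23 adhesion genes, with control and DKO libraries in separate panels and a marker for each replicate. The 14 genes below the dashed line passed in control cells, and the 9 above it did not. In control cells replicate 1 lies nearer to 0 than replicates 2 and 3 in most genes and on the other side of 0 in several, and the 3 DKO libraries stay within 0.5 of 0.

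In DKO cells, 3 h of FFSS gave no adhesion gene past an adjusted p of 0.05 in the edgeR test. Of all genes tested 0.376% rose, 0.497% fell and 0.0872% passed with 2-fold. At an unadjusted p under 0.05 there were 2, both lower, while 2015 of the 14904 genes tested were under that limit. They were Tln2, the second talin (log2 fold change −0.35 ± 0.12, adjusted p = 0.21, edgeR), and Lims1 (−0.15 ± 0.06, adjusted p = 0.28, edgeR). DESeq2 and limma-voom gave 0 as well, beside 2.68% and 0.738% of all genes tested. No library differed from its static mean by more than 0.5 in any of the 39 genes on the log2(CPM + 1) scale, whereas 4, 15 and 12 genes did so in control replicates 1 to 3. The median size of the difference was 0.0673, 0.125 and 0.0763 in the 3 DKO libraries. Neither these counts nor the medians were taken over all genes tested. A fit of the 6 DKO libraries alone gave 9 calls: Itga5, Vcl and Zyx higher, and Itga3, Fblim1, Lims1, Itgb1, Tln2 and Tns1 lower. In that fit 5.54% of all genes tested rose and 5.68% fell. A fit of 11 libraries, without control FFSS replicate 1, gave 3 higher and 5 lower, beside 4.83% and 5.66% of all genes tested.

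In DKO cells all FFSS libraries lay above all static ones in 4 of the tested genes and below them in 11, and 24 overlapped. Tns1 (−0.42 ± 0.20) and Fblim1 (−0.36 ± 0.23) were among the 11, and none of these genes passed. Such separation was not counted over all genes tested, so these counts are not read as particular to the adhesion genes. Libraries of some well known members are given next. Itga5 was at 82.5, 77.3 and 82.2 CPM in static and at 97.0, 96.5 and 89.5 CPM in FFSS libraries, all above the static ones. Zyx was at 88.7, 82.2 and 94.9 CPM in static and at 104.4, 121.5 and 103.1 CPM in FFSS libraries, also all above. Src was at 27.5, 27.6 and 29.5 CPM in static and at 28.1, 27.8 and 27.7 CPM in FFSS libraries. For Src the libraries overlapped, and the rise of the control replicates 2 and 3 had no counterpart in size. Ptk2 was at 130.2, 138 and 140.3 CPM in static and at 140.4, 137 and 129.8 CPM in FFSS libraries. Sdc4 was at 231, 218 and 238 CPM in static and at 228, 232 and 233 CPM in FFSS libraries, so neither gene separated the treatments.

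Whether the response differed between the genotypes was tested with the interaction, the log2 response in DKO cells minus that in control cells. It passed for 2 adhesion genes, 1 higher (Itga11) and 1 lower (Tns3), while 2.28% of all genes tested were higher, 1.68% lower and 0.651% past 2-fold. For Itga11 the interaction was 0.56 ± 0.14 (adjusted p = 0.040, edgeR). It was at 90.6, 95.2 and 90.9 CPM in DKO static and at 88.4, 84.2 and 81.5 CPM in DKO FFSS libraries, a smaller step down than in control cells. For Tns3 the interaction was −0.44 ± 0.09 (adjusted p = 0.020, edgeR). It was at 259, 283 and 261 CPM in DKO static and at 270.3, 248 and 276 CPM in DKO FFSS libraries, with overlapping groups where control cells rose. The Itga11 call was lost in 11 of the 20 settings run for the interaction, which were all the fits without 1 library (0.45 to 0.59) except the one without control FFSS replicate 1. The Tns3 call was lost without control static replicate 2 (−0.42) or 3 (−0.43), DKO static replicate 2 (−0.40), and DKO FFSS replicate 1 (−0.45) or 2 (−0.39). At an unadjusted p under 0.05 there were 13, 5 higher and 8 lower, while 23.8% of all genes tested were under that limit. DESeq2 called 4 higher and 1 lower, beside 4.72% and 2.83% of all genes tested. With limma-voom 1 was higher and 1 lower, beside 2.63% and 1.355%. Without control FFSS replicate 1 the interaction was 0.72 ± 0.08 for Itga11 and −0.47 ± 0.08 for Tns3, and it passed for 27 adhesion genes, 7 higher and 20 lower, beside 19.95% and 17.7% of all genes tested. The interaction, both FFSS comparisons and both comparisons of genotype share libraries, so their values are set side by side and not counted as separate evidence.

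The comparison of DKO with control cells asks how the adhesion genes differ without the deacetylases, before any flow. It had more calls among them than FFSS had. In static cells 11 of the 39 genes were higher and 19 lower in DKO than in control cells, while 27.0% of all genes tested were higher and 27.2% lower. Past 2-fold there were 3 higher (Itgb3, Itga7 and Ilk) and 6 lower (Itga9, Fblim1, Vcl, Zyx, Itgb7 and Tns1), beside 15.3% of all genes tested. Tns1 (to −0.72) and Ilk (to 0.50) fell short of 2-fold in 1 or more alternative settings. Itga3 (to −1.24), Bcar1 (to −1.08), Tgfb1i1 (to −1.20) and Itga10 (to 1.26) reached it in 1 or more, and Zyx went to −1.88 and Src to −0.80. The median log2 fold change was −0.30, beside 0.01 over all genes tested. Integrin subunits and the other proteins had different counts: of 15 tested subunits 7 were higher and 5 lower, and of the 24 other proteins 4 were higher and 14 lower. With library totals alone, which moved the median of all genes to −0.07, 7 were higher and 21 lower, beside 22.6% and 31.9% of all genes tested. The groups differ in cell state as well. The 6 summed chondrocyte markers, of which 5 were tested and Matn1 was at 0 in some libraries, were between 78.1 and 103.5 CPM in control static and between 2362 and 2950 CPM in DKO static libraries, the 6 summed osteoblast markers between 19614 and 23654 CPM and between 58240 and 65647 CPM, and the 5 leukocyte markers, of which 3 were tested and Ptprc stayed at 0.178 CPM or below, between 26.3 and 31.0 CPM and between 2.64 and 3.13 CPM. Of the 6 osteoblast markers tested, 2 passed, Col1a1 and Bglap, both higher, and without control FFSS replicate 1 there were 5 higher. Fewer cells of a kind and less RNA per cell cannot be told apart in bulk libraries, and the part of these cell states in the adhesion genes was not tested.

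Among the integrins that passed the filter on low counts, Itgb3 (11:104469370-104531790, plus strand, mm9) showed the largest difference. It was at 7.66, 6.67 and 7.68 CPM in control static and at 171, 182 and 175 CPM in DKO static libraries, 24.0-fold higher (log2 fold change 4.58 ± 0.16, adjusted p = 4.3e-10). Itga7 (10:128370869-128395333, plus strand, mm9) was at 9.51, 11.7 and 12.9 CPM in control and at 47.3, 50.6 and 44.8 CPM in DKO libraries (2.07 ± 0.10, adjusted p = 1.7e-09). Itga9, whose product binds tenascin and osteopontin, went the other way, from 4.54, 5.99 and 4.68 CPM in control to 0.385, 0.274 and 0.4997 CPM in DKO libraries (−3.69 ± 0.27, adjusted p = 5.5e-08). The DKO values of Itga9 rest on 7, 5 and 9 reads. Itgb7, a beta chain known from lymphocytes, was at 4.17, 3.70 and 4.05 CPM in control and at 1.54, 1.81 and 1.83 CPM in DKO libraries (−1.20 ± 0.25, adjusted p = 0.00087). For all 4 the groups were far apart, and the calls held in all 21 alternative settings.

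The abundant alpha chains moved less. Itga10 was at 104.0, 101.0 and 103.8 CPM in control static and at 190.1, 187 and 203 CPM in DKO static libraries (0.91 ± 0.18, adjusted p = 0.0016). Itga3 was at 75.2, 85.8 and 76.2 CPM in control and at 48.3, 44.6 and 42.5 CPM in DKO libraries (−0.81 ± 0.18, adjusted p = 0.0030). Itgav was at 129, 115 and 119.6 CPM in control and at 142, 159.5 and 150.8 CPM in DKO libraries (0.32 ± 0.07, adjusted p = 0.0012). Itga10 and Itgav were thus higher and Itga3 lower in every DKO library. Itga5 was lower in every DKO library, at 82.5, 77.3 and 82.2 CPM against 101.1, 98.2 and 101 CPM, but did not pass (−0.31 ± 0.13, adjusted p = 0.061). Itga6 (0.43 ± 0.15) and Itga11 (0.28 ± 0.10) were higher, and both calls were lost with library totals alone and without 1 of several libraries: Itga6 with the covariate (0.18) and without control static replicate 1 or 2 (0.42, 0.37) or DKO static replicate 1 or 3 (0.38, 0.42), Itga11 without any 1 of the control static replicates (0.28, 0.29, 0.27) or DKO static replicate 2 (0.26). Among the beta chains, Itgb1 was at 2108, 2030 and 2014 CPM in control and at 1412, 1414 and 1407 CPM in DKO libraries (−0.54 ± 0.07, adjusted p = 2.5e-05). Itgb5 was at 227, 240.0 and 236 CPM in control and at 281, 265 and 279 CPM in DKO libraries (0.23 ± 0.07, adjusted p = 0.011). Itgb8 was at 12.2, 8.90 and 9.58 CPM in control and at 6.54, 7.08 and 5.55 CPM in DKO libraries (−0.68 ± 0.13, adjusted p = 0.00067). Itgb1 and Itgb8 were thus lower while Itgb5 and Itgb3 were higher.

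**Figure D4:**
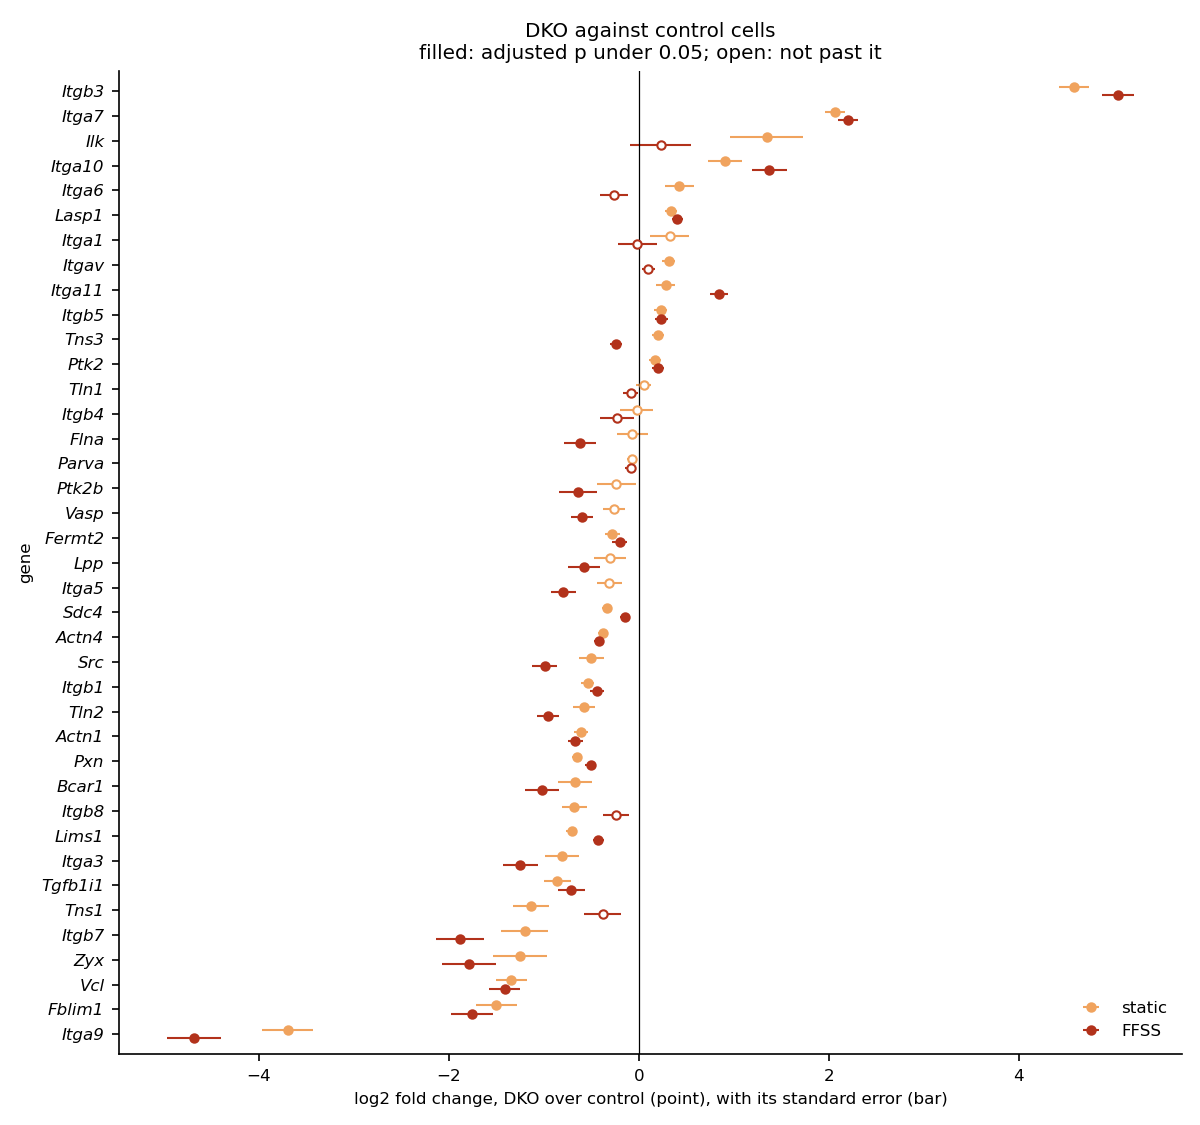
Log2 fold change of DKO against control cells for each tested adhesion gene, in static and in FFSS cells, with error bars of 1 SE and filled points where the adjusted p was under 0.05. Itgb3 lies at 4.58 and 5.05 and Itga9 at −3.69 and −4.68 in static and FFSS cells, and most actin linkers and adaptors lie below 0.

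Of the 4 kinases, Ptk2 and Ilk were higher, Src was lower and Ptk2b did not pass, and Ilk was the 1 past 2-fold. Of all genes tested 27.0% were higher, 27.2% lower and 15.3% past 2-fold. Ptk2 was at 122.8, 119.7 and 121 CPM in control static and at 130.2, 138 and 140.3 CPM in DKO static libraries (0.17 ± 0.06, adjusted p = 0.030). The groups did not overlap, but the call was lost without any 1 of the control static replicates (0.18, 0.16, 0.17), without DKO static replicate 2 or 3 (0.16, 0.15) and with library totals alone (0.09). Ptk2b was at 5.39, 6.51 and 6.05 CPM in control and at 5.94, 4.22 and 5.05 CPM in DKO libraries (−0.24 ± 0.20, adjusted p = 0.35), with overlapping groups. Src was at 38.0, 42.9 and 38.7 CPM in control and at 27.5, 27.6 and 29.5 CPM in DKO libraries (−0.50 ± 0.13, adjusted p = 0.0048), lower in every DKO library. Ilk was at 0.740, 0.729 and 0.684 CPM in control and at 1.92, 1.54 and 2.05 CPM in DKO libraries (1.35 ± 0.38, adjusted p = 0.0085), with the limit from its overlapping neighbours given above. This call was lost with the share of reads outside genes as a covariate (0.50, adjusted p = 0.19).

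The adaptors and linkers had more genes lower than higher. Of the 9 LIM and scaffold adaptors 6 were lower and 1 (Lasp1, 0.34) was higher, and of the 10 activators and actin linkers 6 were lower and 1 (Tns3, 0.20) was higher, while 27.2% of all genes tested were lower and 27.0% higher. The Tns3 call was lost with library totals alone (0.12), with the covariate, without control static replicate 2 (0.18) or 3 (0.19) and without DKO static replicate 2 (0.16). Fblim1 (migfilin), which joins filamin and kindlin, was at 30.5, 27.3 and 26.1 CPM in control static and at 9.46, 10.6 and 9.61 CPM in DKO static libraries (−1.50 ± 0.21, adjusted p = 9.0e-05). Zyx was at 212.5, 217 and 201 CPM in control and at 88.7, 82.2 and 94.9 CPM in DKO libraries (−1.25 ± 0.28, adjusted p = 0.0043). Tgfb1i1 (Hic-5), a relative of paxillin, was at 58.8, 56.6 and 57.3 CPM in control and at 30.3, 30.8 and 34.2 CPM in DKO libraries (−0.86 ± 0.14, adjusted p = 0.00024). Each was lower in all DKO libraries than in any control library. Lims1 was at 245, 235 and 237 CPM in control and at 146, 152 and 142 CPM in DKO libraries (−0.71 ± 0.06, adjusted p = 1.7e-07). Pxn was at 114, 121 and 117 CPM in control and at 75.4, 73.7 and 75.6 CPM in DKO libraries (−0.65 ± 0.06, adjusted p = 3.6e-07). Bcar1 was lower as well (−0.67 ± 0.18, adjusted p = 0.0081), so the genes of the scaffolds paxillin and p130Cas were lower in DKO static cells. Efs, a relative of p130Cas from a list read below, was higher.

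Of the linkers to actin, Vcl (14:21748655-21852895, plus strand, mm9) was at 149, 148 and 138 CPM in control static and at 51.0, 60.01 and 60.5 CPM in DKO static libraries (−1.34 ± 0.16, adjusted p = 3.4e-05). Reads over 39.9% of its exon bases, shared with Ap3m1 on the other strand, were not counted. Tns1 was at 60.3, 55.1 and 59.8 CPM in control and at 22.7, 29.3 and 27.8 CPM in DKO libraries (−1.14 ± 0.19, adjusted p = 0.00038). Actn1 was at 649, 616 and 633 CPM in control and at 399, 438 and 411 CPM in DKO libraries (−0.61 ± 0.08, adjusted p = 1.2e-05). In these 3 genes the groups were well apart. Tln2 (−0.57), Actn4 (−0.38) and Fermt2 (kindlin-2, −0.28) were lower too, while Tln1, the main talin, was at 410.1, 389 and 390.3 CPM in control and at 391, 421 and 420.1 CPM in DKO libraries and did not pass (0.05 ± 0.08, adjusted p = 0.62). Sdc4 was at 289, 291 and 289 CPM in control and at 231, 218 and 238 CPM in DKO libraries (−0.34 ± 0.05, adjusted p = 3.6e-05).

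The promoters of the members were searched for letters bound by factors tied to actin and to the deacetylases. RefSeq (GRCm38.p6) gave a promoter for 32 of the 42 genes, and the 250 bases before the start were read on both strands. Members were counted by gene, and the shares of all promoters by promoter. The CArG box, the site of SRF, was in 2 of the 32 (Fermt2 and Vcl) and in 1.47% of all 32851 promoters. The MEF2 box was in 3 (Bcar1, Itga10 and Lims1) and in 2.92% of all promoters. The TEAD letters CATTCC were in 7 and in 12.6% of all promoters. No match of 1 motif overlapped a match of another. A match is a description of letters and not of binding. Vcl and Fermt2 are shown as the 2 lower genes with a CArG box, and Itga10 as 1 of the 3 genes with a MEF2 box, with the box in capitals. Of these 3, Itga10 was higher and Bcar1 and Lims1 were lower in DKO static cells.
Vcl, chr14:20929148-20929397, plus strand: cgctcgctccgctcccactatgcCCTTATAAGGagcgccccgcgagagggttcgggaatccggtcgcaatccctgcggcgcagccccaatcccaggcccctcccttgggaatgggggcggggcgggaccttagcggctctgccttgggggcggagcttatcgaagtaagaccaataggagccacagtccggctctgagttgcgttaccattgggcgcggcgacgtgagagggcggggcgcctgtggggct
Fermt2, chr14:45530066-45530315, minus strand: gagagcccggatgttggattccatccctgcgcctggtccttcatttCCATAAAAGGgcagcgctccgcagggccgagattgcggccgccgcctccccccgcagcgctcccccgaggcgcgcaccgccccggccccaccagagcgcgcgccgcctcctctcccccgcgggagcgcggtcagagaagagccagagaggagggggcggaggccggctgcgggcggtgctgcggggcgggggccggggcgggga
Itga10, chr3:96645334-96645583, plus strand: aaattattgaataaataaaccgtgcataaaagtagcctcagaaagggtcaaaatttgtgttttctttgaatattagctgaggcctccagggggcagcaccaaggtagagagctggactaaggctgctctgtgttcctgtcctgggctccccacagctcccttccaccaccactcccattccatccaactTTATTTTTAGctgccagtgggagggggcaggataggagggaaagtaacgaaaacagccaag
The box lies 227 to 218 bases before the start in Vcl, 204 to 195 in Fermt2 and 61 to 52 in Itga10.

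The last comparison sets the genotypes side by side under FFSS. Of the 39 genes 7 were higher and 23 lower in DKO FFSS than in control FFSS cells, while 27.0% of all genes tested were higher and 29.6% lower. Past 2-fold there were 3 higher (Itgb3, Itga7 and Itga10) and 7 lower (Itga9, Itgb7, Zyx, Fblim1, Vcl, Itga3 and Bcar1), beside 17.2% of all genes tested. Bcar1 (to −0.87) fell short of 2-fold in 1 or more alternative settings, and Itga5, Itga11, Src and Tln2 reached it in 1 or more. The median log2 fold change was −0.42, beside −0.05 over all genes tested. Of the 24 proteins that are no integrins 2 were higher and 18 lower, and of the 15 tested subunits 5 were higher and 5 lower. Without control FFSS replicate 1 the counts were 7 higher and 25 lower, beside 31.0% and 34.0% of all genes tested. With library totals alone, which moved the median of all genes to −0.25, they were 5 and 28, beside 18.5% and 42.2%. The summed chondrocyte markers were between 50.9 and 83.3 CPM in control FFSS and between 2006 and 2480 CPM in DKO FFSS libraries. All 6 osteoblast markers were higher, 4 of them past 2-fold, with sums of 6452 to 19833 CPM in control FFSS and 60440 to 62513 CPM in DKO FFSS libraries. All 3 tested leukocyte markers (16.4 to 24.6 against 2.87 to 3.51 CPM in sum) and both tested epithelial markers (15.9 to 20.7 against 5.54 to 5.83 CPM) were lower past 2-fold. The part of these markers in the differences was not tested.

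Itgb3 was at 6.88, 3.42 and 4.65 CPM in control FFSS and at 171, 171 and 150.8 CPM in DKO FFSS libraries (5.05 ± 0.16, adjusted p = 2.6e-10). Itga9 was at 6.73, 5.42 and 7.27 CPM in control and at 0.166, 0.178 and 0.391 CPM in DKO libraries (−4.68 ± 0.29, adjusted p = 1.0e-08), and the DKO values rest on 3, 3 and 7 reads. Itga7 was at 11.4, 10.4 and 10.7 CPM in control and at 54.0, 49.9 and 45.9 CPM in DKO libraries (2.20 ± 0.10, adjusted p = 9.7e-10). The groups of these 3 subunits were again far apart. Itgb7 was at 3.60, 7.08 and 4.06 CPM in control and at 1.22, 1.49 and 1.29 CPM in DKO libraries (−1.89 ± 0.25, adjusted p = 2.1e-05). Itga10 was at 108.2, 55.8 and 70.7 CPM in control and at 203, 193 and 213.1 CPM in DKO libraries (adjusted p = 9.4e-05), and Itga11 was higher by 0.84 ± 0.10 (adjusted p = 6.2e-06). Itga3 was at 58.7, 101.9 and 109 CPM in control and at 37.0, 38.5 and 38.1 CPM in DKO libraries (−1.25 ± 0.18, adjusted p = 0.00016). Itga10 and Itga11 were thus higher and Itga3 lower in DKO cells. Itga5 was at 120.1, 184 and 186 CPM in control and at 97.0, 96.5 and 89.5 CPM in DKO libraries (−0.79 ± 0.13, adjusted p = 0.00021). Itgav was at 126, 143 and 129 CPM in control and at 143, 135.5 and 147 CPM in DKO libraries and did not pass (0.10 ± 0.07, adjusted p = 0.22). Itga5 was thus lower in every DKO library and Itgav overlapped. Itgb1 was at 1936, 1786 and 1531 CPM in control and at 1293, 1263 and 1316 CPM in DKO libraries (−0.44 ± 0.07, adjusted p = 0.00015). Itgb5 was at 249, 201 and 230.4 CPM in control and at 275, 270.4 and 258 CPM in DKO libraries (0.24 ± 0.07, adjusted p = 0.0092), a call lost with library totals alone, and Itga6 and Itgb8 did not pass.

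Src was at 41.2, 63.3 and 61.8 CPM in control FFSS and at 28.1, 27.8 and 27.7 CPM in DKO FFSS libraries (−0.99 ± 0.13, adjusted p = 1.9e-05). Ptk2 was at 129, 113 and 112 CPM in control and at 140.4, 137 and 129.8 CPM in DKO libraries (0.20 ± 0.06, adjusted p = 0.012), a call lost without DKO FFSS replicate 1 (0.18) and with library totals alone (0.0077, adjusted p = 0.91). Ptk2b was at 5.08, 9.61 and 7.92 CPM in control and at 5.20, 4.99 and 4.36 CPM in DKO libraries (−0.64 ± 0.20, adjusted p = 0.015). The Ptk2b groups overlapped, and the call was lost without control FFSS replicate 2 (−0.43) or DKO FFSS replicate 3 (−0.57) and in the 6-library fit. Zyx was at 195.5, 470.2 and 469.7 CPM in control and at 104.4, 121.5 and 103.1 CPM in DKO libraries (−1.79 ± 0.28, adjusted p = 0.00050). Fblim1 was at 16.0, 33.5 and 28.3 CPM in control and at 7.85, 8.38 and 6.88 CPM in DKO libraries (−1.75 ± 0.22, adjusted p = 3.1e-05). Bcar1 was at 159, 274.6 and 288.5 CPM in control and at 116, 127 and 113 CPM in DKO libraries (−1.02 ± 0.18, adjusted p = 0.00059). In these 3 adaptors replicate 1 of control FFSS was the control library nearest to the DKO libraries and still above them. Tgfb1i1 was at 40.4, 60.2 and 67.7 CPM in control and at 33.3, 36.2 and 33.7 CPM in DKO libraries (−0.71 ± 0.14, adjusted p = 0.00097). Pxn was at 103.7, 106 and 108 CPM in control and at 79.8, 69.8 and 74.3 CPM in DKO libraries (−0.51 ± 0.06, adjusted p = 3.8e-06).

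Vcl was at 120.5, 197.5 and 200.3 CPM in control FFSS and at 67.8, 61.2 and 66.0 CPM in DKO FFSS libraries (−1.41 ± 0.16, adjusted p = 2.2e-05). Tln2 was at 38.7, 54.4 and 55.8 CPM in control and at 25.6, 25.6 and 25.7 CPM in DKO libraries (−0.96 ± 0.12, adjusted p = 1.1e-05). Actn1 was at 555, 689 and 694 CPM in control and at 404, 404 and 412 CPM in DKO libraries (−0.67 ± 0.08, adjusted p = 5.0e-06). The DKO libraries of each gene lay close together and below all control libraries. Flna was at 896, 1616 and 1514 CPM in control and at 876, 849 and 893 CPM in DKO libraries (−0.62 ± 0.17, adjusted p = 0.0083), so control replicate 1 lay only just above the DKO libraries. Vasp (−0.59), Lpp (−0.57), Lims1 (−0.43), Actn4 (−0.42), Tns3 (−0.24), Fermt2 (−0.20) and Sdc4 (−0.15) were lower as well. The Fermt2 call was lost in 12 of the 21 settings, among them without control FFSS replicate 2 or 3 or any 1 DKO library, and the Sdc4 call without DKO FFSS replicate 1 (−0.14), with no filter on low counts and in the 6-library fit, which also lost those of Tns3 and Lpp. Sdc4 was at 257.5, 257 and 253 CPM in control and at 228, 232 and 233 CPM in DKO libraries. Tns1, lower in static DKO cells, did not pass under FFSS (−0.38 ± 0.20, adjusted p = 0.13), where the control libraries had come down to 36.7, 19.7 and 21.4 CPM and the DKO libraries stood at 20.4, 20.5 and 18.8 CPM. Tns3 was higher in static DKO cells and lower under FFSS. The difference of these contrasts is the interaction given above.

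Leaving out control FFSS replicate 1 kept all 30 of these calls and added Itga6 (−0.41) and Tln1 (−0.19), both lower. The log2 fold changes of DKO against control under FFSS were then 5.35 for Itgb3, 2.24 for Itga7, 1.68 for Itga10, 1.00 for Itga11, 0.31 for Itgb5, −4.65 for Itga9, −2.07 for Itgb7, −1.48 for Itga3, −0.98 for Itga5 and −0.36 for Itgb1. Among the kinases they were 0.27 for Ptk2, −0.85 for Ptk2b and −1.17 for Src. Zyx stood at −2.10, Vcl at −1.61, Bcar1 at −1.25, Tln2 at −1.11, Tgfb1i1 at −0.90, Flna at −0.84, Actn1 at −0.77, Pxn at −0.52 and Sdc4 at −0.14. Tns1 (−0.05) and Itgav (0.06) did not pass in that fit either.

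The wider pathway was read from fixed lists. Of 50 other adhesion proteins tested, 8 rose and 15 fell with FFSS in control cells (17.7% and 18.1% of all genes tested), 0 passed in DKO cells (edgeR), 12 were higher and 19 lower in DKO static cells (27.0% and 27.2% of all), and 13 were higher and 21 lower in DKO FFSS cells (27.0% and 29.6% of all). The same shares of all genes stand beside the counts of the next lists. In static cells Tes (testin, a partner of zyxin) had a log2 fold change of −1.90 ± 0.11, Pdlim7 of −1.29 ± 0.10, Cav1 (caveolin-1) of −1.16 ± 0.24, Fyn, a Src family kinase, of 1.08 ± 0.12 and Efs, a relative of p130Cas, of 2.10 ± 0.26. The interaction passed for 3 of this list, all higher, while 2.28% of all genes tested were higher and 1.68% lower: Git2 (0.43), Rap1a (0.42) and Csk (0.31), the kinase that holds Src inactive. Of 24 matrix ligands tested, 5 rose and 8 fell with FFSS in control cells, 0 passed in DKO cells (edgeR), 12 were higher and 6 lower in DKO static cells, and 13 were higher and 7 lower in DKO FFSS cells. Spp1 (osteopontin), a ligand of alpha v beta 3, was at 764, 833.5 and 833.6 CPM in control static and at 4043, 4204 and 3804 CPM in DKO static libraries (2.31 ± 0.11, adjusted p = 1.7e-09, edgeR). Fn1 (fibronectin) was higher by 0.45 ± 0.07, Col1a1 by 1.56 ± 0.35 and Tnc (tenascin-C) by 1.27 ± 0.09, and Nid1 by 5.39 ± 0.30. Col3a1 was lower (−2.81 ± 0.13) and so was Edil3 (−2.91 ± 0.16). Fn1 was the 1 ligand past the interaction test (0.45 ± 0.10, adjusted p = 0.022). Of 7 tested integrins outside the 42 genes, 1 rose and 2 fell with FFSS in control cells, 1 was higher and 3 lower in DKO static cells, and 3 were lower in DKO FFSS cells. Itgb2 (−3.44) and Itgal (−2.21), chains of leukocytes, were lower in DKO static cells, and Itga2b passed the interaction test (−1.24 ± 0.31, adjusted p = 0.044, edgeR). Without control FFSS replicate 1, of the 50 other adhesion proteins 19 rose and 17 fell with FFSS in control cells and the interaction was higher in 12 and lower in 12. Of the ligands, 25 of which were tested in that fit, 8 rose and 13 fell and the interaction was higher in 10 and lower in 6. Of the 7 integrins 2 rose and 2 fell, and the interaction was lower in 1. All genes tested gave 26.7% and 28.3% with FFSS in control cells and 19.95% and 17.7% for the interaction in that fit. The interaction was then 0.46 for Git2, 0.47 for Rap1a, 0.34 for Csk, 0.49 for Fn1 and −1.46 for Itga2b, each still passing.

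The 3 genes that were not tested had 0 counts in 2 or more libraries. Itga8, an RGD-binding chain, had 1 read in the 3 control static and 34 in the 3 DKO static libraries, a ratio of 35.7 (95% exact interval 5.99 to 1450), and 3 against 38 reads under FFSS, a ratio of 14.4 (4.58 to 73.1). These intervals cover counting error only, and every DKO library had more Itga8 reads than any control library. With no filter on low counts Itga8 was tested and passed, with log2 fold changes of 4.71 ± 0.83 in static cells (adjusted p = 1.7e-05, edgeR) and 3.70 ± 0.67 under FFSS (adjusted p = 2.8e-05, edgeR), which are no bounds, since the control counts were at or under the floor. Itga2 had 3 reads in control static and 0 in DKO static libraries, and 3 and 1 under FFSS. Itga4 had 2 and 5 reads in static and 2 and 3 in FFSS libraries, so neither Itga2 nor Itga4 could be compared at this depth.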

How the data were processed

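RNA was sequenced from 12 libraries of Ocy454 cells, 3 for each of 4 groups. The study's methods name BGISEQ single-end sequencing, alignment with STAR to mm9 with an Ensembl annotation, and HTSeq for counting. The deposited values are raw counts per Ensembl gene ID, which the authors neither normalised nor filtered. Counting was not stranded, so reads shared by overlapping genes were ambiguous and not counted. The sources disagree on the version of HTSeq, so no version of the authors' tools is printed.

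Symbols, positions and union exon lengths came from the mm9 GENCODE annotation, in which 98.9% of the IDs had a symbol. A gene absent (0 counts) from at least 2 libraries was left out, which kept 14904 of 24360 genes with any count. All 12 libraries were fitted as 4 groups with edgeR 4.0.16 in R 4.3.3 (TMM, robust quasi-likelihood fit). A gene passed at a Benjamini-Hochberg adjusted p under 0.05, and the study's own criteria add more than a 2-fold change. The SE is the size of the log2 fold change over the root of F. Total counts were 17.6 to 19.2 M per library, and a floor of 3 counts covers counting error only, since reads without molecular identifiers are not independent molecules. The fit was tested on simulated data.

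The members and lists were chosen with earlier results of these data known. Values in every library are given for up to 4 passing members per role and comparison with the largest change, and for Ptk2, Ptk2b, Src, Pxn, Itga3, Itga5, Itga10, Itgav, Itgb1, Itgb3, Itgb5 and Sdc4. Members named beyond this rule are given as counts and ranges or were named after their values were seen. Marker sums cover lists for 7 cell types. Endothelial markers summed to at most 1.03 CPM, muscle markers to 3.86 to 10.6 CPM with Myog at 0 in every library, and epithelial markers to 15.9 to 25.2 CPM in control and 4.72 to 6.43 CPM in DKO libraries. Motifs were searched with Python 3.11.15. Alternatives tried were library totals alone, RLE factors, filterByExpr or no filter, DESeq2 1.42.0, limma-voom (limma 3.58.1), the replicate number as a block, the share of reads outside genes as a covariate, fits of the 6 libraries of a comparison, and leaving out each library.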

Additional observations from a re-analysis of the deposited data

Results flagged for a closer look

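The response of Tns3 to FFSS differed between the genotypes by an interaction of −0.44 on the log2 scale (SE 0.09, adjusted p = 0.020, edgeR), DKO response minus control response, with all 3 control FFSS libraries above the static ones and overlapping groups in DKO cells. This call was lost in 5 of the 20 settings run. The response of Itga11 differed by 0.56 (SE 0.14, adjusted p = 0.040, edgeR), with all FFSS libraries below the static ones in control and in DKO cells, and the smaller step in DKO cells. This call was lost in 11 of the 20 settings, every fit without 1 library except the one without control FFSS replicate 1.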

How the results depend on the processing

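Across the 5 comparisons, 76 pairs of gene and comparison passed at an adjusted p under 0.05, 52 of them in all settings, and 24 lost the call in 1 or more. With FFSS in control cells, 14 adhesion genes passed; fits of the 6 libraries of the comparison gave 6 (14.7% of all genes), the share of reads outside genes as a covariate 1 higher and 12 lower (6.86% and 8.51%), and leaving out 1 library gave 8 (without control FFSS replicate 3) to 29 (without control FFSS replicate 1). Past 2-fold there were 2 (5.93% of all genes), against 0 with that covariate (1.33%) and 1 with the 6 libraries (2.71%). Leaving out 1 library gave 1 (without control FFSS replicate 3, 3.30%) to 3 (without control FFSS replicate 1, 11.3%). With the covariate 5 calls changed sign: the log2 fold changes were 0.040 for Itgb3, −0.038 for Src, −0.29 for Zyx, −0.15 for Ilk and −0.10 for Flna. The share of reads outside genes itself differed between the groups (5.10 to 10.0%). With FFSS in DKO cells, 0 passed (0.872% of all genes), against 7 with the covariate (9.95%) and 9 with the 6 libraries (11.2%). Leaving out 1 library gave 0 to 8, with 8 without control FFSS replicate 1 (10.5% of all genes). For the interaction, 2 passed (3.97% of all genes), against 5 with DESeq2 (7.54%) and 6 with the covariate (5.86%). Leaving out 1 library gave 0 to 27, and past 2-fold 0 to 2. The 27 and 2 came without control FFSS replicate 1, where 37.6% and 7.60% of all genes passed. The cause of these differences was not tested. The replicate numbers did not pair the libraries (mean correlation of deviations −0.0033 for the same number and 0.0015 for different numbers). With the number as a replicate block, 13, 0, 2, 30 and 29 genes passed in FFSS in control, FFSS in DKO, the interaction, static genotype and FFSS genotype comparisons. Of all genes tested, 34.5%, 0.470%, 2.8%, 53.6% and 55.7% passed in these fits, in the same order. Depth limits Itga2, Itga4, the control values of Itga8 and the DKO values of Itga9.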
